A study of Mus musculus with 3 samples.

Results

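The broad regions of 5-hydroxymethylcytosine (5hmC) enrichment described here are 378 of 13285 merged regions (2.85%) of mouse cerebellum DNA. Peaks of 3 replicates on chromosomes 1 to 19 were merged where they overlapped by at least 1 bp, and a merged region was kept as broad if it contained a single peak of at least 1000 bp. The regions were thus selected on the measured width of a peak, so that their widths, fold enrichments and sharing between replicates are given as a description and without a test. The CpG density, the annotation and the base-calls were not used to choose them.

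The study immunoprecipitated sonicated DNA with an antibody against 5hmC (hMeDIP) and sequenced the product on nanopore MinION flow cells. All 3 replicates were cerebellum DNA of an 8-week-old female C57Bl6Cr mouse, and the labels name no other treatment. The antibody was whole serum in replicate 1, whereas an IgG-purified antibody was used for replicates 2 and 3, and each list of peaks was made against input DNA. Judged by the library names, the replicates came from a single animal, so the replicate spread reflects the immunoprecipitation and sequencing steps rather than differences among mice, and the antibody cannot be told apart from other differences between the replicates. The base-call files held 68673 calls at 28372 CpG sites on these chromosomes for replicate 1, 101734 at 63439 for replicate 2 and 73834 at 46334 for replicate 3. The median site had 1 call in every replicate. The files list sites at forward-strand positions of GRCm39 only, and whether calls of the reverse strand were added to them is not given in the sources used here, so that a call per CpG may stand for 1 strand or both.

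5hmC is made from 5-methylcytosine (5mC) by the TET dioxygenases, and it is both a step in the removal of methylation and a stable mark. It is more abundant in neurons than in most other cells, and in brain it lies mainly within gene bodies at CpG dinucleotides. Nanopore base-calling gives each CpG of a read as 5hmC, 5mC or unmodified C, so that the modification state of an enriched region can be read from the enriched fragments themselves.

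The sequence at the summit of the widest peak is shown for 3 regions with that summit in coding sequence, as examples of closely spaced CpG. Each is 200 bases of the forward strand of GRCm39, and CpG dinucleotides are in capitals. Kcnj11 (chr7:45748560-45748759) and Celsr2 (chr3:108321540-108321739) lie in coding sequence of regions with a peak in every replicate, and each holds 11 CpG. Both genes are on the reverse strand, so the printed bases are the reverse complement of their coding strand. Apba1 (chr19:23870832-23871031), a gene on the forward strand, is coding sequence with 28 CpG from the region with the second highest CpG density. The whole regions held 4.30 (Kcnj11), 4.94 (Celsr2) and 10.6 (Apba1) CpG per 100 bp. The median over all broad regions was 2.06, so these examples are denser than a typical broad region.
Kcnj11: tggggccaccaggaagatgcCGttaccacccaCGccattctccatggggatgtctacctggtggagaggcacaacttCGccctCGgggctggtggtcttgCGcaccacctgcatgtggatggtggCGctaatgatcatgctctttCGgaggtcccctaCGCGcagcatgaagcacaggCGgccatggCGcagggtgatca
Celsr2: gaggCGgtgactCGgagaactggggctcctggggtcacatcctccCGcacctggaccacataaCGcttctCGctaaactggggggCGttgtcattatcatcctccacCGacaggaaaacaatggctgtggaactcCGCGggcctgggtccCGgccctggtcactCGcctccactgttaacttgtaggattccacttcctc
Apba1: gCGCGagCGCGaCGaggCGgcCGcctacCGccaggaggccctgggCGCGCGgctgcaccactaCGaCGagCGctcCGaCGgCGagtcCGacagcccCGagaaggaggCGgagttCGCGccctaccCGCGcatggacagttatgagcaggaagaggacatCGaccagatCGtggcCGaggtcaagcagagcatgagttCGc

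Peaks of this width were rare in every replicate and came mostly from replicate 2. Replicate 1 had 15 among 490 peaks (3.06%, exact 95% binomial interval 1.72 to 5.00), replicate 2 had 331 among 8506 (3.89%, 3.49 to 4.32) and replicate 3 had 42 among 5146 (0.816%, 0.589 to 1.10). The widest single peaks measured 1816, 2649 and 2788 bp in replicates 1, 2 and 3. The narrowest peaks measured 295, 304 and 302 bp and the medians were 296, 304 and 302 bp, so that a typical peak was as narrow as the narrowest of its list. The merged broad regions were 1000 to 3328 bp long with a median of 1204 bp, whereas the median of the 12907 other regions was 304 bp. Here and below, other regions are all merged regions that are not broad. They include 2787 whose widest peak was 500 bp or more but under 1000 bp. Without replicate 2 only 55 broad regions were found.

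**Figure D1:**
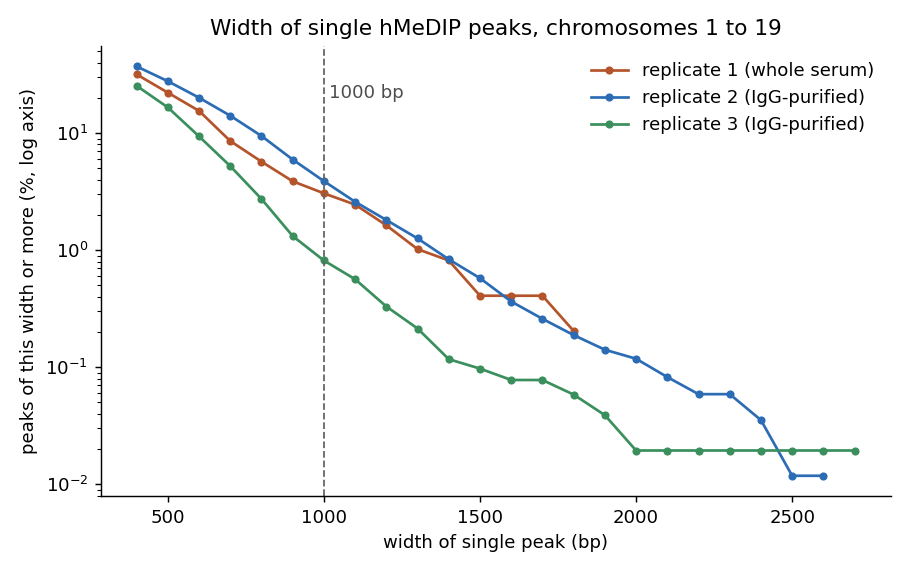
Share of peaks (vertical axis, percent, log scale) that are at least as wide as the value on the horizontal axis (bp), for each replicate. At 1000 bp replicates 1 and 2 lie close together (3.06% and 3.89%) and replicate 3 lies lower (0.816%).

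The single peaks nearest the threshold differed by a few bases. The narrowest inside measured 1000 bp in Dab1, an adaptor of reelin signalling, and 5 measured 1001 bp, in Gm5424, in Sema6d, a semaphorin, in Ephb2 and at 2 intergenic positions (chr5:89006743-89007743 and chr6:47740848-47741848). The widest outside measured 997 bp in Sipa1l1, a GTPase activator, and in Ntng1, a netrin G adhesion protein, 998 bp in 2310020H05Rik and Gm61409, and 1 bp short of the limit in Trappc5, a vesicle tethering subunit. In the same order the fold enrichments were 3.83, 3.76, 2.87, 3.70, 4.68 and 4.55 inside and 3.53, 2.87, 12.9 and 4.79 outside.

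The wide peaks rested on few reads. The median fold enrichment over background was 5.67, 3.83 and 4.83 for wide peaks in replicates 1, 2 and 3, beside 4.72, 3.81 and 3.87 for the other peaks. Fold enrichments moved in even steps, and with a step taken as 1 read the median wide peak had 5, 3 and 3.99 reads at its summit. In replicate 2, 57.7% of the wide peaks had at most 3 reads at the summit, compared with 81.8% of the other peaks. These read numbers assume the genome-wide background at every peak.

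A wide peak was seldom wide in a further replicate. Of the 378 regions, 370 had a peak of at least 1000 bp in 1 replicate, 6 in 2 and 2 in all 3. A peak of any width was found in at least 2 replicates for 127 of the regions (33.6%) and in all 3 for 25 (6.61%). Without replicate 3 the share with a peak in at least 2 replicates was 9.41%. Among regions whose widest peak was 500 bp or more but under 1000 bp the first share was 13.2%. Among all regions that were not broad, these included, it was 5.16%. Within the set it was 24.6% of the 122 regions with a widest peak of under 1100 bp and 48.1% of the 54 with a widest peak of 1500 bp or more, but a longer region has more room to overlap a peak of another replicate. Where a broad region had a narrower peak in another replicate, that peak had a median of 450, 454 and 388 bp in replicates 1, 2 and 3.

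Broad regions were richer in CpG than the other regions. Their median was 2.06 CpG per 100 bp of reference sequence (interquartile range 1.57 to 2.60). It was 1.85 for regions with a widest peak of 500 bp or more but under 1000 bp and 1.73 for all regions that were not broad. The mean over chromosomes 1 to 19 was 0.851. In total they held 12031 CpG, a median of 25 each. The range was wide, from no CpG in the intron of 8030443G20Rik to 13.1 per 100 bp in Nrxn2. The difference of medians between broad and other regions had the same sign for each replicate's own regions, at 1.04, 0.292 and 0.918 for replicates 1, 2 and 3, and it was smallest in the replicate that gave most of them. Over the merged regions it was 0.327, and 0.974 without replicate 2.

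The difference lay at both ends of the distribution. Only 17 broad regions (4.5%) had fewer than 1 CpG per 100 bp, compared with 19.9% of the other regions, which are shorter and so vary more. At the upper end 37 broad regions (9.79%) reached 4 CpG per 100 bp, compared with 4.63% of the others. In the 500 bp around the summit, a window of the same length in all regions, 23 broad regions (6.08%) and 0.945% of the others met a CpG island-like limit (GC of at least 55% and an observed-to-expected CpG ratio of at least 0.65). The medians in this window were 2.00 CpG per 100 bp for broad regions and 1.80 for the others. They lay closer together than the medians over whole regions. The 1000 bp on either side of the broad regions had a median of 1.50 CpG per 100 bp, and 287 regions (75.9%) were denser than their own flanks, beside 68.9% of the others.

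**Figure D2:**
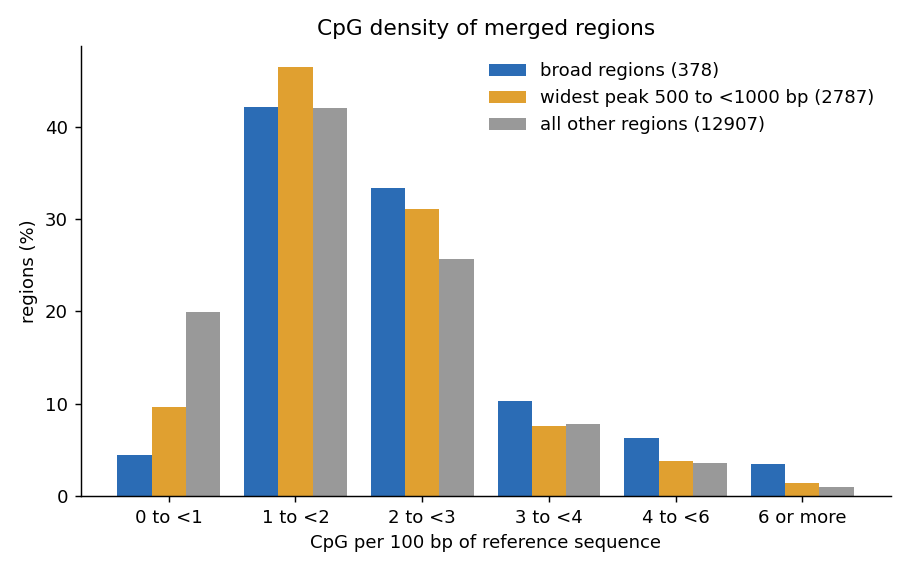
CpG per 100 bp of reference sequence (horizontal axis, classes) against the percentage of regions in each class (vertical axis). Shown are broad regions, regions with a widest peak of 500 bp or more but under 1000 bp, and all other regions. The last set holds every region that is not broad and so includes the second. The broad regions have the lowest bar below 1 CpG per 100 bp (4.5%) and the highest bar in each class from 2 upwards.

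Most broad regions lay within genes, and they covered coding sequence more often than the other regions did. By the feature covering most of their bases, 245 regions were intronic (64.8%, exact interval 59.8 to 69.6), 86 exonic (22.8%, 18.6 to 27.3), 29 intergenic (7.67%, 5.20 to 10.8) and 18 in promoters, the 1000 bp upstream of a gene (4.76%, 2.85 to 7.42). The profile is mostly that of 1 library, since the 55 broad regions found without replicate 2 were 38.2% intronic, 29.1% exonic, 18.2% intergenic and 14.5% in promoters, and the intervals do not cover this. Over all merged regions introns took 68.8%, exons 16.4%, intergenic sequence 9.34% and promoters 5.44%. Coding sequence made up 13.3% of the bases of broad regions and 7.88% of those of other regions. The start site of a protein-coding gene lay in 3 broad regions, and the median distance to the nearest was 30610 bp.

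Many of the exonic regions sat on long coding exons. The summit of the widest peak, a single base whatever the length of the region, was in coding sequence of a canonical transcript in 59 broad regions (15.6%, exact interval 12.1 to 19.7). The share was 9.01% for regions with a widest peak of 500 bp or more but under 1000 bp and 7.25% for all that were not broad. In 33 broad regions (8.73%, 6.09 to 12) that exon was at least 1000 bp long, compared with 4.34% and 2.75%. These 33 regions had a median of 3.91 CpG per 100 bp, and 54.5% of them had a peak in a second replicate.

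The broad regions overlapped 302 protein-coding genes with a median length of 86.6 kb. The median was 75.5 kb for 1495 genes with regions whose widest peak was 500 bp or more but under 1000 bp. It was 54.8 kb for the 4217 genes with any merged region. Each gene counts once and long genes have room for more regions, so the medians depend on how many regions each set holds. Whether broad regions favour long genes was not tested. The centres of the regions spread over the gene body, with 12.6% in the first 10% of the gene and 14.6% in the last 10%, beside 12% and 10.3% of all regions. In total 30 genes held at least 2 broad regions, and 9 held 3 or more. These counts are a description, since none was made for all merged regions and a long gene has room for several. Mical3, an actin-oxidising enzyme, held 4. Cacna1c, a calcium channel subunit, Coro2b, a coronin, Ephb2, an ephrin receptor, Galnt2, a glycosyltransferase, Itpk1, an inositol phosphate kinase, Mmp24, a membrane metalloprotease, Nrxn2, a neurexin, and Tcf4, a transcription factor, held 3 each. Of the 3 Coro2b regions 2 consisted of repeated sequence, so that reads from other copies may count towards this gene. Genes that overlap each other, such as Fgfr2 and Ctbp2, share their regions.

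The chromosomes differed in how many broad regions they held. Chromosome 19 had 2.93 per 10 Mb and chromosome 4, with 40 regions, had 2.55, whereas chromosome 1 had 9 regions or 0.461 per 10 Mb. On chromosome 1 they were 1.19% of the merged regions and on chromosome 19 they were 4.57%. Within 10 kb of another broad region lay 34 (8.99%), and within 100 kb lay 88 (23.3%). An array of repeats on chromosome 6 held 8 broad regions within 122310 bp. No such share was counted over all merged regions, so no clustering of broad regions is read from these counts.

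Broad regions were counted over 19 lists of gene symbols and set beside all merged regions, with no test. Genes of the glutamate synapse held 8 broad regions (2.12%), compared with 0.708% of all regions. Among them were Grm4, a metabotropic receptor with 2 regions, Grin2c, an NMDA receptor subunit, and the postsynaptic scaffolds Shank3 and Dlgap4. The Shank3 region (chr15:89430516-89432436) was 1921 bp long with 32% 5hmC of 225 calls. No broad region lay on a gene of the GABA and glycine synapse list, which had 38 of all regions (0.286%), and a count of 0 among 378 allows a share of up to 0.794%, so a share like that of all regions could not be told apart from 0 at this number of regions.

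Synaptic adhesion genes also held 8 broad regions (2.12%, beside 1.42% of all regions), among them Nrxn2, Igsf21 and Ncam1. Potassium channel genes held 5 (1.32% beside 0.783%), namely Kcnj11, Kcnd2, Kcnt1, Kcnj6 and the accessory subunit Kcnmb4. Calcium channel and store genes held 6 (1.59% beside 1.32%), with Cacna1a, which encodes the main Purkinje cell calcium channel, Cacnb4 and Cacng2 next to Cacna1c. The list of other ion channels had 5 (1.32% beside 0.565%), including the acid-sensing channel Asic2.

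The lists of transcription and chromatin regulators gave small counts too. Developmental transcription factors had 10 (2.65% beside 1.33%), with Foxn3, Foxo3, Nfix and Tcf4, but 1 of the 10 was in Tbxas1, an enzyme that shares only letters of its symbol with the T-box factors. Zinc finger proteins had 10 (2.65% beside 1.87%), chromatin regulators 6 (1.59% beside 1.13%) and nuclear receptors 2 (0.529% beside 0.565%). The chromatin regulators included Tet3, itself a 5mC dioxygenase, with an intronic region at chr6:83388189-83389504 that had 28% 5hmC of 25 calls. RNA-binding proteins had 5 (1.32% beside 1.32%), among them Rbfox3, which marks neurons.

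Other lists had shares near or below that of all regions, or few members. GTPase regulators had 11 (2.91% beside 3.17%), cytoskeleton and motor proteins 8 (2.12% beside 1.83%), axon guidance genes 6 (1.59% beside 1.14%) and second messenger enzymes 3 (0.794% beside 2.14%). Cadherins and protocadherins had 2 (0.529% beside 0.617%), which were Celsr2 and Cdh13, and imprinted genes had 2 (0.529% beside 0.151%), which were Gnas and Trappc9. Of the cell type lists, cerebellar neuron markers had 1 region (0.265% beside 0.399%) and glia markers had 0, with 10 among all regions (0.0753%).

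Some broad regions consisted of repeated sequence. In 21 broad regions (5.56%) fewer than 50% of the sampled 31-base words were unique in the genome, compared with 2.58% of the other regions, and reads from other copies cannot be told apart from those of the named position. Of the 25 broad regions with a peak in every replicate 11 were of this kind. Of these, 7 lay in an array of repeats at chr6:47632809-47755118, which held 24 merged regions, 8 of them broad. Its most common repeat distance was 4300 bp, the median word in its broad regions had 15 to 17 copies, and 50000 bases of the span are unknown in the reference.

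Just 2 regions, both with little unique sequence, carried 27526 of the 33888 calls of replicate 1, 10113 of the 21628 of replicate 2 and 6064 of the 12613 of replicate 3. They were chr2:98496582-98497736, at the non-coding genes Gm75300 and Gm75297, with 37742 calls over the 3 replicates, and chr9:3000258-3001551, which is intergenic, with 5961. A median broad region had 38 calls and a median other region had 8. The share of 5hmC at the chr2 region was 1.70%, 2.72% and 2.60% in replicates 1, 2 and 3, and at the chr9 region 1.57%, 2.80% and 1.73%. Both were mostly 5mC, at 88.6% and 87.5% of calls, while their fold enrichments were 9.32, 10.2 and 11 (chr2) and 5.19, 4.11 and 3.13 (chr9). Enrichment was thus found here in every replicate with a low share of 5hmC, which at this depth still came to 463, 276 and 150 5hmC calls over the 2 regions.

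Summed over all 378 regions, replicate 1 had 5.86% 5hmC among 33888 calls (exact interval 5.62 to 6.12), replicate 2 had 16.8% among 21628 (16.3 to 17.3) and replicate 3 had 15.6% among 12613 (15 to 16.2). The mean was 12.7% ± 5.98 (SD, n = 3). 5mC made up 79.4%, 59.3% and 59.3%. Without the 2 regions of high signal the share of 5hmC was 24.0%, 29.1% and 27.8% (26.9% ± 2.66), that of 5mC was 34.9%, 35.5% and 34.2% and that of unmodified C was 41.2%, 35.4% and 38.0%. Without all 21 repeated regions 5hmC was 29.9% of 4309 calls, 32.5% of 9359 and 30.4% of 5316 (30.9% ± 1.33), 5mC was 39.7%, 38.1% and 36.5%, and unmodified C was 30.4%, 29.5% and 33.1%. In the 357 broad regions of mostly unique sequence the 3 states were thus of similar size, with 5mC the largest in each replicate. The intervals cover counting error only. They treat each call as independent, although calls of the same read need not be, so they may be too narrow.

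The comparison with other regions turned on the same few positions. Over all regions 5hmC was lower in broad than in other regions in every replicate, with differences of -21.3, -14.9 and -15.5 percentage points for replicates 1, 2 and 3 (mean -17.2 ± 3.51, two-sided exact permutation test p = 0.25, the smallest p that 3 replicates allow). 5mC was higher by 33.4, 18.6 and 17.1 points (exact permutation p = 0.25), and unmodified C was lower in every replicate (mean -5.79 ± 5.61 points, exact permutation p = 0.25). With repeated and high-signal regions left out of both sets, the mean difference was -1.45 ± 1.07 points for 5hmC (-1.39, -0.412 and -2.54 by replicate, exact permutation p = 0.25) and -1.67 ± 1.67 for 5mC (-0.271, -1.21 and -3.52, exact permutation p = 0.25). Unmodified C was then higher in broad regions, by 1.66, 1.63 and 6.06 points (mean 3.12 ± 2.55, exact permutation p = 0.25), and without the high-signal regions alone by 10.1 ± 2.31 points. The directions for 5mC and unmodified C were therefore opposite once these regions were left out, and that for 5hmC was the same. Its size depended on what was left out. Without the high-signal regions alone the 5hmC difference was -5.06 ± 1.65 points (-6.78, -3.49 and -4.93 by replicate), beside -1.45 without repeated regions as well. Leaving out the repeated regions was chosen after seeing the data.

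**Figure D3:**
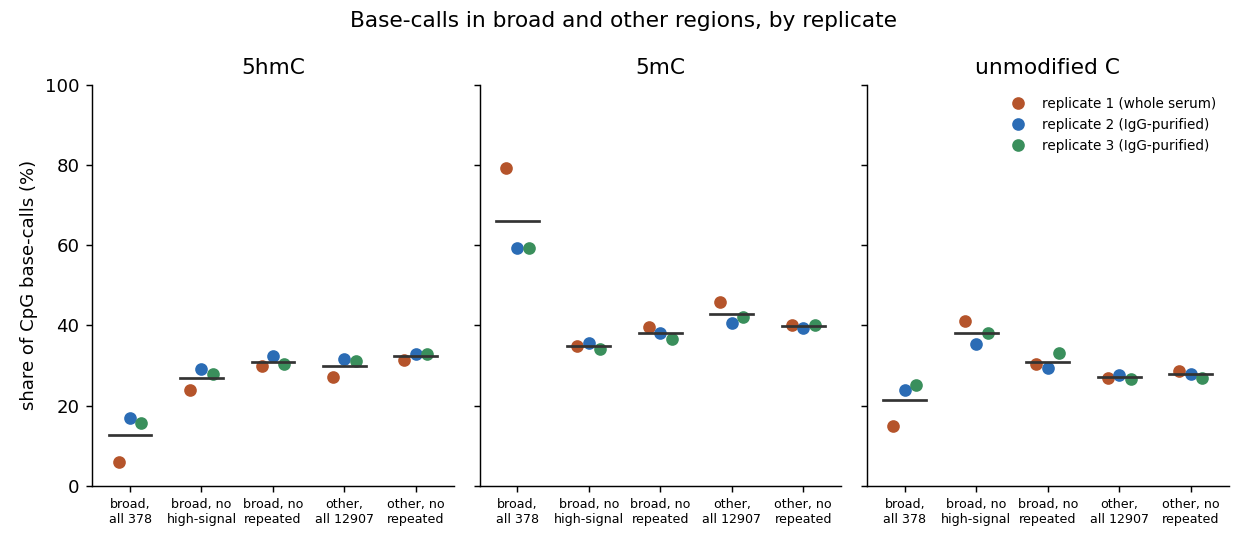
Share of CpG base-calls (vertical axis, percent) that were 5hmC, 5mC or unmodified C in broad and other regions, with a point for each replicate and the mean. All 378 broad regions stand apart at a mean of 12.7% 5hmC, whereas the 357 without repeated sequence lie at 30.9%.

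Region by region, the shares of broad and other regions were close. At least 10 calls over the replicates were available in 355 of the 378, and their median share was 31.8% 5hmC (interquartile range 23.8 to 40.0), 36.2% 5mC and 27.1% unmodified C. The 5699 other regions with as many calls had medians of 32.1%, 40.0% and 22.6%. Of the broad regions with 10 or more calls, 1 had no 5hmC call (0.282%), compared with 2.90% of the others, which hold fewer calls. Only 2 broad regions had no call at all, the one without a CpG in 8030443G20Rik and chr18:32832542-32833630.

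The share of 5hmC in a single region varied between replicates. Among broad regions of mostly unique sequence with at least 20 calls in both replicates, Pearson's r was 0.484 between replicates 1 and 2 (39 regions), 0.0715 between 1 and 3 (33) and 0.392 between 2 and 3 (47). The median absolute difference was 7.12, 9.76 and 9.97 percentage points. These values are across regions of the same DNA and rest on sparse counts, so they describe the noise of a single region and no relation is read from them.

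In the broad regions with a peak in replicate 2 alone, base-calls of the replicates without a peak gave shares of the same order. A total of 233 broad regions had peaks only in replicate 2. In these, 5hmC made up 31.3% of 1333 calls of replicate 1 (exact interval 28.8 to 33.8) and 33.4% of 1159 calls of replicate 3 (30.7 to 36.2). Other regions with peaks only in replicate 2 had 31.3% and 34.1%. The depth was 0.229 and 0.199 calls per CpG in the broad regions and 0.220 and 0.192 in the others. The 14 broad regions with a peak only in replicate 3 scattered more, with 25.3% of 158 calls in replicate 1 (exact interval 18.7 to 32.8) and 43.6% of 78 in replicate 2 (32.4 to 55.3). The 4 with a peak only in replicate 1 had 31.2% of 16 calls in replicate 2 and 63.2% of 19 in replicate 3, too few to read.

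CpG density went with the base-calls. In the 176 broad regions below 2 CpG per 100 bp, 5hmC made up 35.4%, 37.0% and 32.7% of calls in replicates 1, 2 and 3. In the 163 regions with 2 to 4 it was 32.4%, 31.2% and 32.2%, both classes without the high-signal regions. In the 26 regions of mostly unique sequence with 4 or more it was 23.6%, 27.7% and 27.6%, below both other classes in every replicate. Unmodified C was 28.2%, 28.4% and 37.1% on average over the same classes. Other regions had 36.6%, 32% and 22.9% 5hmC on average, the same order.

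By feature, introns lay above exons in each replicate. Without repeated regions 5hmC was 35.6%, 34.2% and 31.8% in the 240 intronic broad regions and 25.2%, 29.8% and 29.8% in the 81 exonic ones. The 17 promoter regions had 30.4%, 28.1% and 26.2% and the 19 intergenic regions 25.4%, 37.5% and 33.3%. Intronic regions had a median of 1.85 and exonic regions 3.08 CpG per 100 bp, so that feature and density moved together and their parts in the result were not tested. In the 33 regions with their summit in a long coding exon the share was 26.4%, 32.1% and 34.0%, beside 23.5%, 25.2% and 26.1% in the other regions with such a summit, and it was higher in each replicate.

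Along the regions the share of 5hmC was slightly lower in the middle. With the 2 high-signal regions left out, it was 21.9%, 27.4% and 26.1% in the middle 50% of the length and 26.6%, 30.8% and 29.9% in the rest, a mean difference of -3.99 ± 0.648 points (exact permutation p = 0.25). Without repeated regions it was 29.0%, 31.3% and 29.6% against 31%, 33.6% and 31.4%, a mean difference of -2.06 ± 0.202 points (exact permutation p = 0.25). Over all 378 regions the difference was -3.64 ± 1.51 (exact permutation p = 0.25), and the sign was the same in 3 of 3 replicates each time. The size over all regions varied with the libraries, the minimum of calls and the definition of the middle. With regions merged anew it was -8.33 points without replicate 1, -2.13 without replicate 2 and -3.71 without replicate 3. At CpG with at least 3 and 5 calls it was -1.23 and -0.274 ± 0.242. Such a minimum also gives the 2 high-signal regions more weight, and depth was not tested apart from them. Within 250 bp of the midpoint the difference was -4.58, and within 250 bp of the summit of the widest peak -7.02 ± 1.46. CpG density along the 357 regions ranged from 2.2 to 2.60 per 100 bp.

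**Figure D4:**
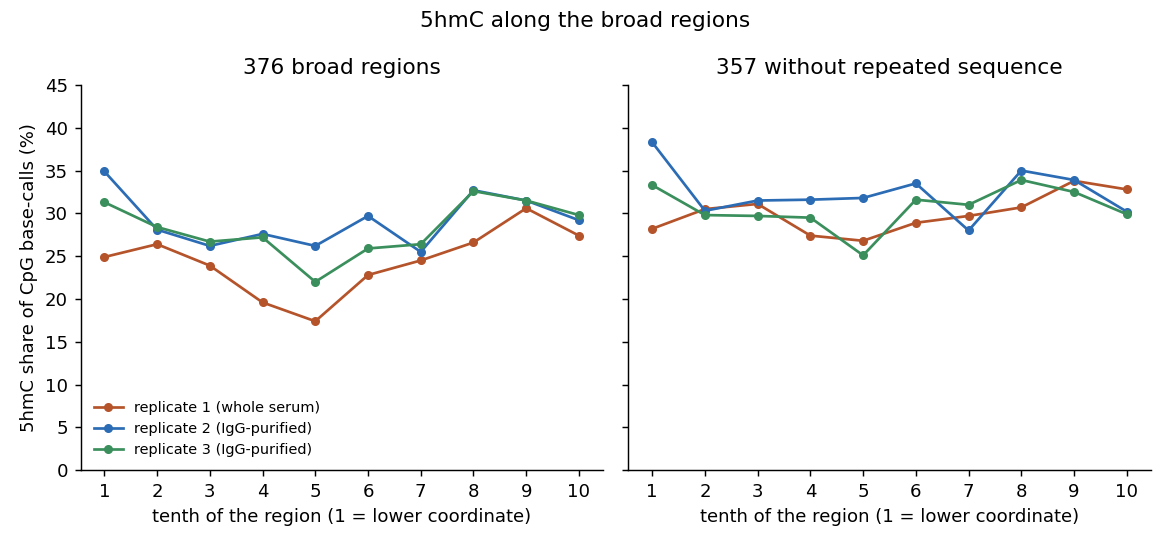
Share of CpG base-calls that were 5hmC (vertical axis, percent) in 10 equal parts of the region from its lower to its higher coordinate (horizontal axis), by replicate, for 376 broad regions without high signal and for the 357 without repeated sequence. In the left panel replicate 1 reaches its lowest value, 17.4%, just before the middle, and in the right panel all points lie between 25.1% and 38.3%.

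Of the 14 regions of mostly unique sequence with a peak in every replicate, Kcnj11 had the highest mean fold enrichment. Kcnj11 encodes the pore subunit of the ATP-sensitive potassium channel. Its region (chr7:45748146-45749562) was 1417 bp long, lay in the single exon of the canonical transcript with 1170 bp of coding sequence, and held 61 CpG. Peaks measured 1013, 1269 and 1007 bp in replicates 1, 2 and 3, and their fold enrichments were 8.50, 7.66 and 6.78 (7.64 ± 0.862, SD, n = 3). It was 1 of the 2 broad regions in which all 3 peaks were wide, and the other lay in the chr6 array. Replicate 1 had 27.9% 5hmC among 129 calls (exact interval 20.4 to 36.5), replicate 2 had 48.2% among 85 (37.3 to 59.3) and replicate 3 had 63.2% among 68 (50.7 to 74.6). The interval of replicate 1 did not overlap those of replicates 2 and 3. Since calls of the same read were counted as independent, no difference between replicates is read from this.

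Celsr2, an atypical cadherin of planar cell polarity, and Emilin3, an extracellular matrix glycoprotein, had the lowest and the highest share of 5hmC among these 14 when calls were pooled over the replicates, though not in each replicate by itself. The Celsr2 region (chr3:108319679-108322309) lay wholly within coding sequence of exon 1, 2631 bp with 130 CpG. Its peaks measured 295, 1751 and 971 bp, and 5hmC was 14.1%, 18.3% and 29.5% of calls, with 64.8% 5mC over the replicates. The Emilin3 region (chr2:160748815-160750607) lay in the last exon, exon 4, and had 58.6%, 50.0% and 54.5% 5hmC. The exact intervals of Celsr2 and Emilin3 did not overlap in replicates 1 and 2 and overlapped in replicate 3 (20.3 to 40.2 and 32.2 to 75.6). These intervals too count calls of the same read as independent and may be too narrow.

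Nrxn2, a presynaptic adhesion receptor, had a region at exon 2 (chr19:6477782-6478844) with peaks in replicates 2 and 3 and the highest CpG density of the set. There 5hmC was 11.8%, 8.55% and 18.5% of calls and unmodified C was 57.9% over the replicates.

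Other genes with a peak in every replicate had intermediate values. Tnrc18, a chromatin-associated protein, had 24.2%, 33.3% and 34.0% 5hmC at exon 4 (chr5:142773424-142774552). Sh3pxd2a, a podosome scaffold, had 17.3%, 22.9% and 43.3% in its last exon, exon 8 (chr19:47254710-47256385). Srebf2, a regulator of cholesterol synthesis, and Shisa8, an AMPA receptor auxiliary subunit on the opposite strand, shared a region (chr15:82091365-82092932) with 16.7%, 42.0% and 20.4%. The intervals of replicates 1 and 3 did not overlap in Sh3pxd2a, and those of replicates 1 and 2 did not overlap in Srebf2. As above, no difference between replicates is read from intervals that treat each call as independent.

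Ntn3, a netrin, had 13.9%, 28.3% and 55.6% 5hmC, but only 9 calls in replicate 3 (chr17:24426082-24428000). Egln2, an oxygen-sensing prolyl hydroxylase, had 33.3%, 29.2% and 21.1% (chr7:26863190-26864725). Prox1os, a non-coding transcript at the transcription factor gene Prox1, had 55.1%, 34.1% and 18.2% (chr1:189904799-189906074). In Prox1os the order of the replicates was the reverse of that in Kcnj11.

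Of the 25 broad regions with a peak in every replicate 5 were intronic, Egln2 among them. In Tiam1, a Rac exchange factor, 5hmC was 53.8%, 28.6% and 75% of 13, 42 and 8 calls (chr16:89718749-89720128). In Tafa5, a secreted chemokine-like protein, it was 14.3%, 33.3% and 19% (chr15:87447466-87449450). In Ctif, a translation initiation factor, it was 22.7%, 30% and 38.7% (chr18:75696571-75697721). With so few calls the intervals of the 3 replicates overlapped in each of these regions. They also did in an intergenic region (chr2:94104607-94105732) with 31.8%, 26.9% and 30% of 22, 26 and 10 calls.

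**Figure D5:**
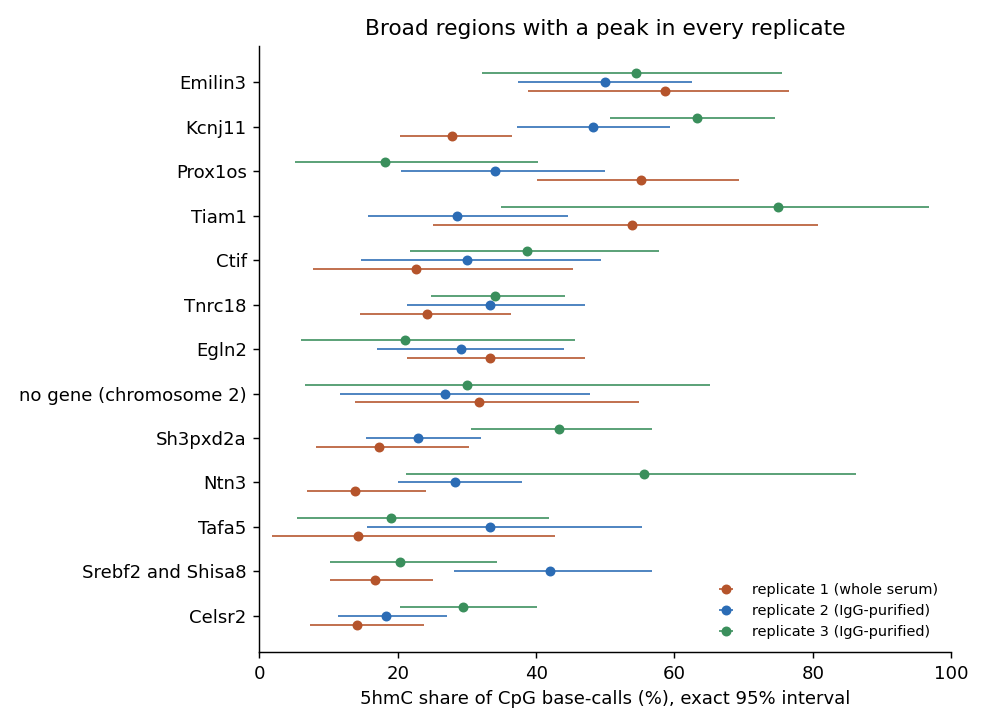
Share of CpG base-calls that were 5hmC (horizontal axis, percent, with exact 95% interval) in each replicate for the 13 broad regions of mostly unique sequence with a peak and at least 5 calls in every replicate. All points of Emilin3 lie at 50.0% or above and all points of Celsr2 at 29.5% or below.

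The widest region of the set was in Myh7b, a myosin heavy chain gene, with 3328 bp from exon 30 to exon 40 of 42 (chr2:155472240-155475567). It had peaks of 749 bp in replicate 2 and 2788 bp in replicate 3 and none in replicate 1, whose 98 calls there were 34.7% 5hmC. The shares in replicates 2 and 3 were 33.6% of 110 and 27% of 141. Celsr2 and 3 regions of the chr6 array, with 2448 to 2649 bp, were the next widest.

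After Nrxn2, the highest CpG densities were found at long coding exons. Apba1, a presynaptic adaptor protein, had 10.6 CpG per 100 bp (chr19:23869901-23871482) and 22.8%, 23.5% and 21.2% 5hmC. Irgq, a GTPase-related protein, had 7.86 (chr7:24232688-24233960) and 27.6%, 34.7% and 34.9%. Zbtb7a, a transcriptional repressor, had 7.70 (chr10:80979717-80981040) and 32.3%, 37.3% and 47.3%. Pooled over the replicates Apba1 had 22.4%, Irgq 33.7% and Zbtb7a 42.2%, beside the median of 31.8% over broad regions with at least 10 calls. Ajm1, an apical junction protein, had 8.47 (chr2:25466747-25467820) but 15.3% and 11.9% 5hmC in replicates 1 and 2 and none in 17 calls of replicate 3, where the exact interval reaches 19.5%. Among the 218 broad regions with at least 30 calls in all and 5 in at least 2 replicates, Ajm1 had the most unmodified C, 81.1% of 143 calls.

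The highest and lowest shares of 5hmC were taken from the same 218 regions, whose median was 31.9%. The highest was exon 1 of Kcnd2, a voltage-gated potassium channel (chr6:21216322-21217343), with 60% of 30 calls in replicate 2, 67.4% of 46 in replicate 3 and no call in replicate 1. It was followed by the host gene of the neuronal microRNA miR-124 (Mir124-2hg, chr3:17849329-17850739) with 58.1% of 43 calls and an intron of Fbrsl1 (chr5:110558695-110559793) with 56.8% of 44. Emilin3 with 53.0% of 117 and an intergenic region (chr2:101293291-101294449) with 52.9% of 70 came next. The lowest outside repeated sequence was an intron of Adamts20, a secreted metalloprotease (chr15:94302910-94304000), with 5.88% of 34. The other 4 of the 5 lowest were the high-signal regions and 2 regions of the chr6 array. An intron of Ctbp2, a transcriptional corepressor, where the annotated Fgfr2 gene also extends (chr7:132717190-132718419), had the third highest share of unmodified C with 70.6% of 34, after Ajm1 and a region of the array.

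The chr6 array differed from most broad regions in state. Over its 8 broad regions, replicate 1 had 9.73% 5hmC among 1870 calls, replicate 2 had 9.96% among 1737 and replicate 3 had 13.3% among 1079 (11% ± 2.02), and 67.5% ± 4.24 of calls were unmodified C. Its CpG density ran from 4.18 to 6.99 per 100 bp. The fold enrichments reached 11.9, 9.36 and 9.76 in replicates 1, 2 and 3. How many copies the genome of this mouse holds was not tested.

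The region in 8030443G20Rik (chr4:108803381-108804528) had no CpG, and it had fold enrichments of 9.54, 7.94 and 9.17 in the 3 replicates. Its peaks measured 821, 1110 and 830 bp, and only 17.9% of its sampled words were unique. As no CpG base-call exists there, its enrichment cannot be set beside a modification state. Simple repeats made up at least 10% of the sequence in 8 broad regions (2.12%), compared with 3.55% of the other regions.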

How the data were processed

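DNA of mouse cerebellum was enriched for 5hmC and sequenced in 3 replicates. The authors base-called reads with Dorado, aligned them to GRCm39, and found peaks per replicate against input with MACS2. The deposited peak lists give the fold enrichment at the summit as a ratio and the −log10 p-value and q-value of each peak, and the largest q was 0.0467. The deposited modkit tables give counts of base-calls per CpG site and the percent modified; counts were used here, at the forward-strand positions listed. The authors removed peaks over listed high-signal regions of the genome, yet 2 broad regions of very high signal remain, and that removal was not checked here.

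Peaks on chromosomes 1 to 19 were merged (overlap of 1 bp or more) and calls were summed per region and replicate, with no minimum of calls per site. Features came from GENCODE M39, and CpG, GC and 31-base words, sampled every 10 bp, from the GRCm39 sequence. High-signal regions have a CpG with 20 or more calls. Shares have exact Clopper-Pearson 95% intervals, which cover counting error only and treat each call as independent. Differences over the 3 replicates were tested with a two-sided exact permutation test (sign flips; smallest p 0.25), and the script was tested on simulated data. Named regions were Kcnj11, members with a peak in every replicate, the 5 widest, the 5 densest in CpG, the 5 highest and 5 lowest in 5hmC, the 3 highest in unmodified C, those nearest the threshold, genes with several members, and up to 4 genes per list; Tbxas1 was named after its values were seen. Members and lists were chosen with earlier results of these data known. Alternatives concerned peak width, peak filters, overlap, minimum calls, weighting, region sets, annotation and leaving out replicates. Regions of the X and Y chromosomes are given only in the closing section. Computations used scipy 1.17.1 and pandas 2.3.3 with numpy 2.4.6 and pysam 0.24.0 (Python 3.11.15), and figures matplotlib 3.10.9. Some genes and sequences are not reported here.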

Additional observations from a re-analysis of the deposited data

Results flagged for a closer look

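Peaks of 1000 bp or more also occurred on the sex chromosomes, which the comparisons above do not use. There were 6 such peaks in 3 merged regions. The region chrX:169092194-169094034 was 1841 bp long, had a peak in all 3 replicates and a widest peak of 1638 bp. The region chrY:90754766-90756178 had a peak in 2 replicates and a widest peak of 1183 bp, although the animal is labelled female, and chrX:104165937-104166941 had a peak in 1 replicate. Whether reads of similar sequence elsewhere gave these peaks was not tested.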

How the results depend on the processing

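Of 107 alternative values, 72 met the rule set for each result, 31 moved and 4 reversed. For the differences of 5hmC and 5mC from other regions and of the middle from the rest, the rule asked only for the same sign. These gave 11, 7 and 9 of the 72, whatever their size, so the total does not measure how stable the sizes were. The share of 5hmC in broad regions (12.7%) was 5.48%, 2.77% and 2.31% with at least 3, 5 and 10 calls per CpG, 27.9% as a mean of CpG sites, 31.1% as a mean of regions, 26.9% without high-signal regions and 30.9% without repeated ones, and 6.73% to 17.1% leaving out a replicate (lowest without replicate 2). The share of 5mC (66.0%) was 78.8%, 85.2%, 87.5%, 36.8%, 39.1%, 34.9% and 38.1% in the same order, and 57.6% to 76.3% leaving out a replicate. Its difference from other regions (23.0 points) reversed to -3.33 as a mean of sites, -1.76 as a mean of regions, -5.03 without high-signal and -1.67 without repeated regions. The difference of 5hmC from other regions (-17.2 points) kept its sign in the mean. It was -5.06 points without high-signal regions and -1.45 without repeated and high-signal ones. As a mean of regions with 10 or more calls it was -0.311 ± 0.712 (exact permutation p = 0.50), within the spread between replicates. The difference of the middle from the rest (-3.64 points) kept its sign under every alternative run. Its size was -8.33 to -2.13 leaving out a replicate and -1.23 and -0.274 with at least 3 and 5 calls per CpG. With the middle taken within 250 bp of the midpoint or of the summit of the widest peak it was -4.58 and -7.02.

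The number of broad regions was 1162 at 750 bp, 141 at the wider limit tried, 173 with fold enrichments of at least 4 and 55 to 369 leaving out a replicate (55 without replicate 2). The CpG difference (0.327 per 100 bp) was 0.285 to 0.974 leaving out a replicate. It was smaller than 0.285 in the 500 bp at the summit, where the medians were 2.00 for broad and 1.80 for other regions. The promoter share was 8.47% with 2000 bp and 1.59% with protein-coding genes only, and the intergenic share 14.3% with these. Leaving out a replicate gave 3.24% to 14.5% promoter, 22.1% to 29.1% exon, 38.2% to 67.4% intron and 7.35% to 18.2% intergenic. The share found in at least 2 replicates was 22.9% at 750 bp, 41.1% at the wider limit and 9.41% to 29.8% leaving out a replicate. Differences were taken within each replicate and are thus paired already. Leaving out repeated regions, and replicates for CpG, features and sharing, was chosen after seeing the data. With a median of 1 call per CpG, single sites could not be read.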
